A study of Mus musculus with 6 samples.

Results

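Peaks of open chromatin whose centre lies in the 5' untranslated region (5' UTR) of a transcript were followed in natural killer (NK) cells of mouse spleen. They are the rows of the authors' consensus peak table that HOMER, a peak annotation tool, placed in a 5' UTR, and there were 1204 of them among 51775 peaks (2.33%). The assay was ATAC-seq, which reads out open DNA as the places where a transposase can put in adapters. The cells came from C57BL6 mice and were sorted as CD3-CD5- NK1.1+ NKp46+, and 50000 cells of each genotype were transposed in triplicate, per the labels. The groups were wildtype and Rroid deficient, with 3 libraries each and no treatment named. The labels used here do not name age, sex or the way Rroid was removed. Nothing in the labels says that a genotype's libraries came from different animals, and the p-values then reflect only how far these libraries differ, which can be technical.

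The 5' UTR is the stretch of a messenger RNA between the transcription start and the first codon. On DNA it begins at the start site, so open chromatin at an active promoter usually reaches into it. Rroid, a locus close to Id2, encodes a long noncoding RNA. Id2 protein binds E proteins and keeps them from the E-box, the sequence CANNTG, and NK cells need it to develop and to persist.

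The 1204 peaks belonged to 1199 genes by nearest start site, and 1202 of the peaks were assigned to protein-coding genes. The annotated exon was exon 1 for 1152 peaks, exon 2 for 47 and a later exon for 5. Their median width was 1377 bp, against 964 bp over all peaks. The centre lay a median of 185 bp downstream of the nearest start site (interquartile range 136 to 267.25 bp), and 958 centres lay more than 100 and up to 300 bp downstream. A total of 1159 peaks were wide enough to span the start site, and 27 centres were more than 1000 bp from one, 25 of them downstream. Most of these peaks are therefore start-site peaks whose centre lies just inside the transcript. HOMER's class of promoter peaks held 6486 peaks and is set beside them. Its single furthest centre was 928 bp downstream of the nearest start, which is not a limit of the class. Only 2 members did not lie more than 100 bp downstream. The distances of members thus depend on where HOMER divides the classes. For 164 peaks the 5' UTR belonged to another transcript than the one with the nearest start, so the gene given is an assignment by distance.

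Because Id2 acts on E proteins, E-box letters in the promoters of some called members are shown. Pard6b, Rnf145, Fchsd2, Stx11 and Rap2b were found with CAGGTG or CAGCTG, on either strand, in the window upstream of the start. They come from the 12 largest rises and 12 deepest falls at or above the median member level. Windows were not read for every member gene, so the list may be incomplete. Sema6d, Coro2b and Kcna4 are examples from weaker peaks with larger changes, chosen after their values were seen. The windows come from RefSeq's promoter table for GRCm38.p6, from 250 bases before to 50 after each start. The peaks are on the older mm9 build, so the windows were not placed on the peaks. Each run is 30 bases upstream of the start on the gene's strand, with the E-box in capitals. CACCTG is CAGGTG read on the other strand. Pard6b, Rnf145, Fchsd2, Sema6d and Coro2b had peaks that were higher in Rroid-deficient cells, and Stx11, Rap2b and Kcna4 had peaks that were lower.
Pard6b chr2:168080851-168080880, plus strand: acgccgcgggcgCAGGTGcgcgcttcccat
Pard6b chr2:168080906-168080935, plus strand: gcgccgaagctgCAGGTGagcgcgcgcacg
Rnf145 chr11:44519260-44519289, plus strand: aggctgcggctcCAGGTGactgcggtcagc
Fchsd2 chr7:101108605-101108634, plus strand: cgccgcgtcagcCAGCTGcagccgggccgc
Sema6d chr2:124653379-124653408, plus strand: caatatgctcacCAGGTGcttcagcgaggc
Coro2b chr9:62537124-62537153, minus strand: gaactcgtgtggCAGCTGcgggacccgtag
Stx11 chr10:12964286-12964315, minus strand: ggccctggtcccCAGCTGtgcagcctcagc
Rap2b chr3:61364288-61364317, plus strand: agaggtcgcagcCAGCTGctgcctgctgtc
Kcna4 chr2:107290339-107290368, plus strand: agtggCACCTGtgctgtggtcggtcctgga

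Both E-box sequences that were searched, CAGGTG and CAGCTG, stood in promoters of genes whose peaks changed in either direction. Other forms of CANNTG were not searched. Of the member genes, 966 matched RefSeq by gene ID and gave 1237 windows. CAGGTG, read on both strands, stood in 27.3% of 150 windows of genes with a higher peak, in 15.0% of 100 windows of genes with a lower peak and in 17.9% of 989 windows of genes without a call. It stood in 20.2% of all 32851 promoter windows. The palindrome CAGCTG stood in 15.3%, 11.0% and 15.0% of the same groups of member windows and in 16.3% of all windows. CCAAT, the box bound by NF-Y, stood in 25.3%, 42.0% and 37.2% of them and in 37.4% of all. CCGGAA, a core of ETS factor sites, stood in 14.7%, 20.0% and 23.3% of them and in 14.9% of all. A match describes letters and is no bound site, windows of 1 gene can overlap, and these shares were not tested.

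Members were GC-rich. Their windows had a median GC content of 60.7%, against 52.7% over all promoters, and 67.4% had a ratio of observed to expected CpG dinucleotides over 0.6, against 35.8%. That share was 64.0% for genes with a higher peak and 63.0% for genes with a lower peak. GGGCGG, the box of Sp factors, stood in 61.2% of member windows and in 35.7% of all. TATAAA stood in 7.11% and 13.6%. Windows of genes with a promoter peak were alike, with a median GC content of 61.3% and 70.9% of windows over the ratio of 0.6. GGGCGG stood in 63.8% of them and TATAAA in 5.95%, so these traits are not particular to the members.

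The libraries held 27572006 to 47939665 reads in peaks, and the median 5' UTR peak held 961 to 1571 reads. No member was at 0, and the lowest reading was 12 reads. Values below are normalized reads per peak, mean ± SD with n = 3 libraries per genotype. Wildtype libraries are numbered 1 to 3 and Rroid-deficient libraries 4 to 6, as the column names end. In a block of 11 peaks on chromosome 12 near Id2 (26000744 to 26079794), wildtype libraries held 4531, 6509 and 4914 reads and Rroid-deficient libraries 31, 43 and 42, so the genotypes matched their labels. All 7 NK marker genes had a peak within 1 kb of their start, and these summed to 19328 to 22123 in wildtype and 16119 to 19551 in Rroid-deficient libraries. Of these 7 peaks 4 were called lower, beside 12.1% lower and 13.8% higher over all peaks. Of the T-cell markers, Cd3e, Cd3d, Cd4, Cd8a, Cd8b1 and Trac had none, while the peaks of Cd3g and Cd5 summed to 96.7 to 174 in wildtype and 432 to 516 in Rroid-deficient libraries. Of the B-cell markers only Cd79b (at most 63.5 in wildtype and 90.2 in Rroid-deficient libraries) and of the myeloid markers Cd14 and Itgam (748 to 927 and 572 to 629) had such a peak. Both T-cell peaks were called higher, 1 of the 2 myeloid peaks was called lower and the Cd79b peak had no call. The part of marker-bearing cells in the results below was not tested.

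5' UTR peaks took a like share of the signal in all libraries. They held 6.05, 6.14 and 6.10% of all values in the wildtype libraries and 6.01, 6.13 and 6.01% in the Rroid-deficient libraries. The median log2 fold change, Rroid deficient minus wildtype, was -0.01 (interquartile range -0.15 to 0.19), beside -0.01 over all peaks and -0.03 over promoter peaks. Within the class 141 peaks were higher in Rroid-deficient cells, 96 were lower and 967 had no call (limma on log2 of the value plus 1, adjusted p under 0.05 over all 51775 peaks). The shares were 11.7% higher and 7.97% lower, against a background over all peaks of 13.8% higher and 12.1% lower. In either direction 19.7% were called, against 25.8% over all peaks and 18.7% over promoter peaks. The genotypes did not overlap at 445 members (37.0%), against 40.1% over all peaks and 35.1% over promoter peaks.

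**Figure D1:**
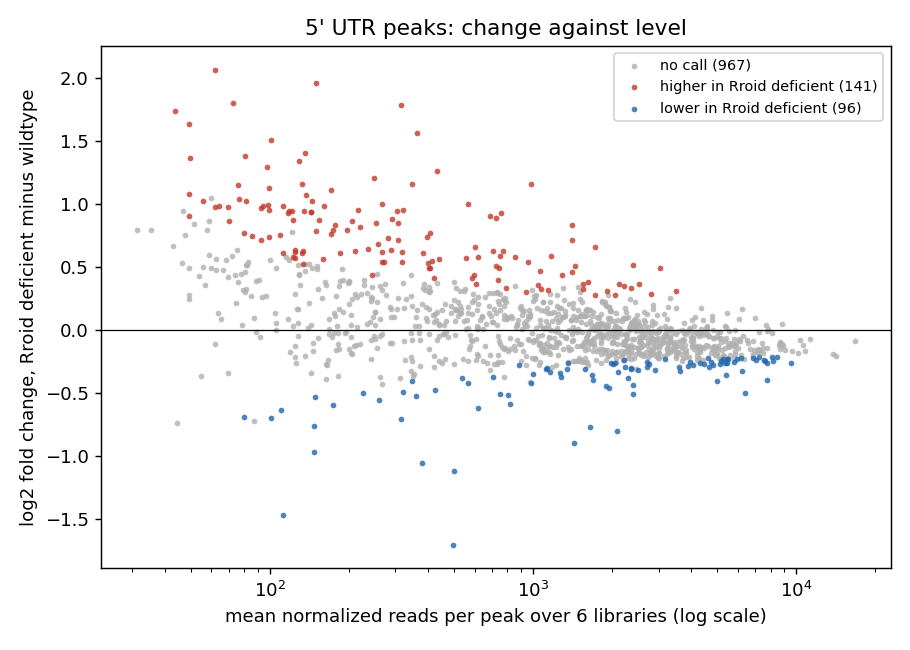
Log2 fold change (Rroid deficient minus wildtype, limma) of each of the 1204 5' UTR peaks against its mean over 6 libraries in normalized reads, on a log axis. Red points are the 141 peaks called higher, blue points the 96 called lower and grey points the 967 without a call. Rises lie mostly to the left, at weak peaks, and most falls lie to the right as small changes of strong peaks.

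Rises and falls differed in kind. The rising peaks had a median log2 fold change of 0.74 at a median level of 267 normalized reads, and 28 of them rose at least 2-fold. The falling peaks had a median of -0.32 at a median level of 2232, and 4 of them fell at least 2-fold. Promoter peaks were alike, with medians of 0.66 at a level of 293 and -0.33 at 2312. Of 6486 promoter peaks 123 rose and 15 fell at least 2-fold. Over all 51775 peaks the medians were 0.85 at 184 and -0.59 at 416, with 2641 and 991 at least 2-fold. The median level of all members was 1323. The 6 strongest members, Ing1, Ptma, Jun, Midn, Xpo1 and Gpbp1, were not called. Ing1, a chromatin reader subunit, had the highest level of those named, 17177 ± 1159 in wildtype and 16191 ± 634 in Rroid-deficient cells (adjusted p = 0.404, limma). Ptma, which encodes prothymosin alpha, had 15189 ± 955 and 13184 ± 1007 (adjusted p = 0.0503). Jun, an AP-1 subunit, had 14722 ± 1052 and 12916 ± 301 (adjusted p = 0.0583). Xpo1, the main nuclear exporter of proteins, had 11404 ± 545 and 10143 ± 164 (adjusted p = 0.0775). In each of these 4 the Rroid-deficient mean was the lower one, though with loess the log2 fold change of the peak at Ing1 was positive (0.07).

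The relation to level was followed by dividing all 51775 peaks by mean level into 5 bins of equal size, from bin 1, the weakest, to bin 5, the strongest. In bin 1, 12 of 42 members were higher and 0 lower, and in bin 2, 33 of 82 were higher and 4 lower. Bin 3 had 34 higher and 6 lower of 136, and bin 4 had 37 and 18 of 257. In bin 5, which held 687 members, 25 were higher and 68 lower. The share of members called higher was thus 28.6% in bin 1, 40.2% in bin 2 and 3.64% in bin 5, while over all peaks of these bins it was 13.0%, 15.4% and 6.37%. The share called lower in bin 5 was 9.90%, against 16.3% over all peaks. Promoter peaks had the same order, with 68 higher and 5 lower of 302 in bin 1 and 124 and 416 of 3853 in bin 5. The difference between 5' UTR peaks and other classes was not tested.

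**Figure D2:**
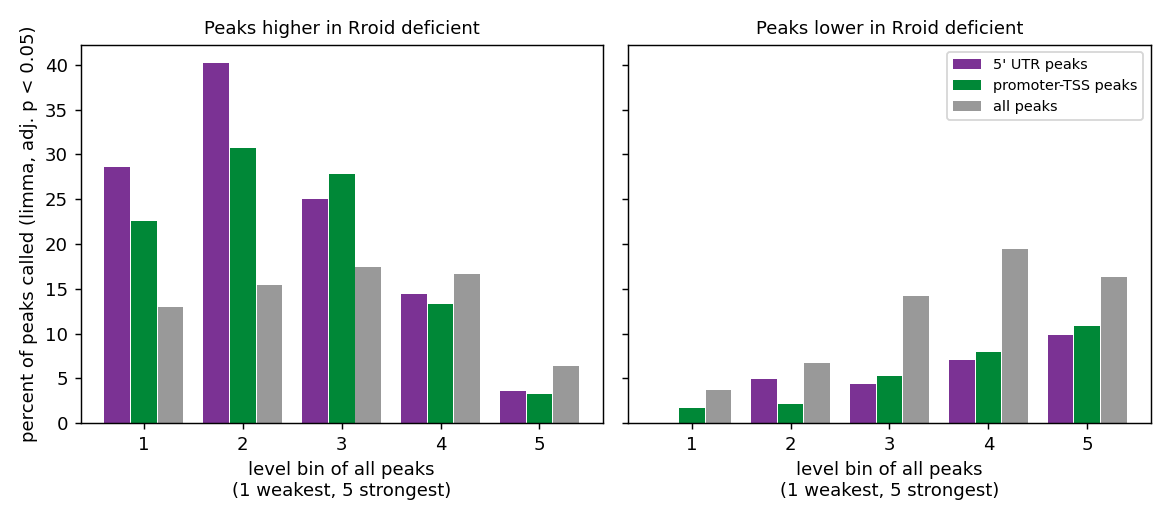
Percent of peaks called higher (left) and lower (right) in Rroid-deficient cells within each of 5 equal bins of all peaks by level (1 weakest, 5 strongest), for 5' UTR, promoter and all peaks. Among 5' UTR peaks the share called higher is 28.6% in bin 1, 40.2% in bin 2 and 3.64% in bin 5, and the share called lower goes from 0 to 9.90%.

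Single libraries moved with this pattern. In bin 1 the median member stood -0.14, -0.38 and -0.32 from its own mean over 6 libraries in wildtype libraries 1, 2 and 3, on the log2 scale. It stood 0.66, -0.02 and 0.38 from it in Rroid-deficient libraries 4, 5 and 6. Libraries 4 and 6 were the shallowest, and library 5 lay near the middle. Without libraries 4 and 6, 75 members were higher and 15 lower, and 72 of the 141 rising and 12 of the 96 falling peaks were called. All 141 and all 96 kept their direction there. The falling count was 42 without wildtype library 2, 62 without wildtype library 3, 39 without library 4 and 30 without library 6. The rising count stayed between 100 and 164 when any 1 library was left out. Scaling by total reads in peaks gave 194 higher and 73 lower, and a loess scaling by level gave 199 and 67, so the rising share of calls was 59.5% in the main test, 72.7% with total reads and 74.8% with loess. Of the rising peaks 135 stayed called with loess, and of the falling peaks 64 did. The part that depth and these libraries had in the pattern was not tested.

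The 12 largest rises and 12 deepest falls at or above the median level were taken from called peaks whose groups did not overlap, so that separation is part of the choice. Among the rises were genes of varied function. Kcnc1, a voltage-gated potassium channel gene (chromosome 7, 53651398 to 53653466, exon 1), read 1098, 1153 and 804 in wildtype and 1781, 1963 and 1644 in Rroid-deficient libraries. The Rroid-deficient libraries were the closer to each other, and the mean rose 1.76-fold from 1018 ± 188 to 1796 ± 160 (log2 fold change 0.83, SE 0.12, adjusted p = 9.48e-05, limma). All 5 other peaks assigned to Kcnc1 also rose, with log2 fold changes from 0.61 to 1.08. Chst2, a sulfotransferase gene that helps make the glycans bound by L-selectin, read 1194, 973 and 1030 against 1777, 1790 and 1659. The rise was 1.63-fold (adjusted p = 5.34e-05). Here 1 of 13 other peaks rose and 1 fell.

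Of these 12 peaks 3 were at genes of the ubiquitin list. Ube2t, the E2 enzyme of the Fanconi anaemia pathway (chromosome 1, 136858697 to 136859890), read 1199, 1669 and 1165 in wildtype and 1918, 2248 and 2124 in Rroid-deficient libraries. It rose 1.56-fold (adjusted p = 0.000688, limma), and the 1 other peak assigned to it fell by 0.61 on the log2 scale. Rnf145, a membrane-bound ubiquitin ligase of sterol metabolism (chromosome 11, 44331945 to 44334299), read 1957, 2010 and 1950 against 2847, 2971 and 2674. Its wildtype libraries were close together at 1972 ± 33.2, and the rise was 1.44-fold (adjusted p = 0.000189). Of 5 other Rnf145 peaks 4 rose. Usp24, a deubiquitinase gene, went from 1356 ± 170 to 1742 ± 73.4 (adjusted p = 0.0138), a call that was lost without wildtype library 3 or Rroid-deficient library 6.

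Pard6b, a subunit of the PAR polarity complex (chromosome 2, 167905852 to 167907496), read 2483, 3072 and 2037 in wildtype and 3383, 3896 and 3307 in Rroid-deficient libraries. The wildtype libraries were widely spread, and the mean rose from 2531 ± 520 to 3529 ± 321 (1.39-fold, adjusted p = 0.00502, limma). Fchsd2, which promotes actin assembly at membranes, read 1211, 1275 and 1058 against 1508, 1788 and 1595 (1.38-fold, adjusted p = 0.00289), and 2 of its 3 other peaks rose. Whrn, a scaffold protein gene known from hair cells, rose from 1189 ± 113 to 1693 ± 156. Epas1, the hypoxia-inducible factor HIF-2 alpha, went from 1413 ± 169 to 1834 ± 159 (adjusted p = 0.0121), a call lost without wildtype library 2. Bend3, a repressor that binds CpG-rich DNA, rose from 1852 ± 134 to 2390.5 ± 117 (adjusted p = 0.00535). Eif4e2, a cap-binding protein that represses translation, and Sec24a, a cargo receptor of vesicle coats, rose by 0.37 and 0.35 on the log2 scale, and each call was lost without any 1 of 3 libraries.

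Weak members had the largest folds. The peaks in this paragraph and the next lie below the median level, and those in none of the gene lists were chosen after their values were seen. Sh3pxd2a, the podosome scaffold TKS5 (chromosome 19, 47538059 to 47539414), read 204, 128 and 104 in wildtype and 412, 548 and 498 in Rroid-deficient libraries. The lowest Rroid-deficient library was above the highest wildtype library, the rise was 3.35-fold (1.79 on the log2 scale, SE 0.20, limma adjusted p = 6.83e-06), and all 7 other peaks of the gene rose. Sema6d, a transmembrane semaphorin (chromosome 2, 124435415 to 124436972), read 211, 151 and 190 against 601, 508 and 522. It rose 2.95-fold (adjusted p = 1.09e-06), and 6 of its 8 other peaks rose. Tnfrsf19, a receptor of the TNF receptor family also called TROY, rose from 66.8 ± 43.7 to 231 ± 27.8, and its 1 other peak rose too. Coro2b, an actin-binding coronin, read 44.5, 30.2 and 23.4 against 114, 119 and 105 and rose 3.44-fold, with 3 of 5 other peaks rising.

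En2, a homeobox gene of the developing brain, read 40.1, 55.4 and 60.6 in wildtype and 180, 116 and 154 in Rroid-deficient libraries. It rose 2.88-fold (adjusted p = 0.000198, limma), and both of its other peaks rose. Gata5, a GATA factor of heart and gut, read 42.7, 45.4 and 43.0 against 130, 88.5 and 133 (2.68-fold, adjusted p = 0.000489), while neither of its other peaks was called. These levels are far below the member median of 1323, and ATAC-seq does not show whether a gene is transcribed.

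The largest fold among members was at Zfp791, a zinc finger gene (chromosome 8, 87643274 to 87644045, exon 2 of 5, 3335 bp from the nearest start). It read 25.8, 30.2 and 15.6 in wildtype and 105, 110 and 85.8 in Rroid-deficient libraries, a 4.20-fold rise (2.07 on the log2 scale with an SE of 0.30, limma adjusted p = 8.43e-05). The 1 other peak assigned to Zfp791 is intergenic, and HOMER placed it in an RLTR4_Mm element, a retroviral long terminal repeat (chromosome 8, 87655013 to 87656978). That peak read 7.12, 10.1 and 5.86 in wildtype and 288, 327 and 181 in Rroid-deficient libraries, 34.5-fold higher (log2 fold change 4.92, SE 0.32, adjusted p = 1.62e-08). Reads from near-identical copies of a repeat can be placed on the wrong copy, and the sources used here do not say how such reads were handled.

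The deepest falls at or above the median level were at Jup, Gpc1 and Plscr4. Jup, which encodes the junction protein plakoglobin (chromosome 11, 100258307 to 100259621), read 1768, 2014 and 1801 in wildtype and 843, 1194 and 987 in Rroid-deficient libraries. The mean of 1008 ± 176 was 54.2% of the wildtype 1861 ± 133 (log2 fold change -0.90, SE 0.12, adjusted p = 2.53e-05, limma). Gpc1, a cell-surface heparan sulfate proteoglycan, read 2288, 2845 and 2778 against 1297, 1884 and 1413. It fell to 58.1% (adjusted p = 0.000142), and 5 of its 7 other peaks fell. Plscr4, a phospholipid scramblase gene, read 1890, 2018 and 2306 against 1301, 1070 and 1284. It fell to 58.8% (adjusted p = 4.23e-05), and all 6 other peaks of the gene fell. Rap2b, a small GTPase of the Ras family, read 6846, 7155 and 8524 against 5324, 5464 and 5118 (70.6%, adjusted p = 0.000327), and 9 of its 12 other peaks fell.

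**Figure D3:**
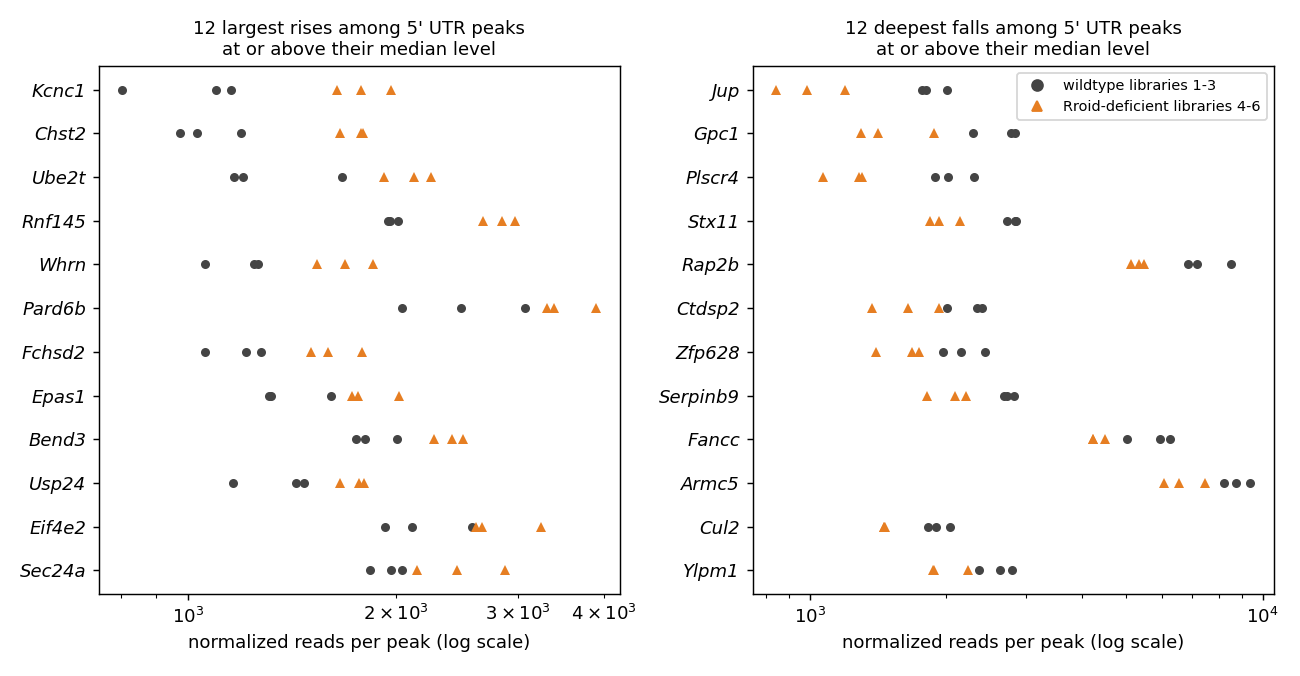
Normalized reads per peak (log axes) in each library for the 12 largest rises (left) and 12 deepest falls (right) among called 5' UTR peaks at or above the median member level. Black circles are wildtype libraries 1 to 3 and orange triangles Rroid-deficient libraries 4 to 6, and peaks were chosen so that the groups do not overlap.

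Stx11 and Serpinb9, from the list of mature NK effector genes, were among the falling members. Stx11, a syntaxin needed for granule release by NK cells (chromosome 10, 12682876 to 12685010, exon 1 of 2), read 2722, 2839 and 2854 in wildtype and 1842, 2151 and 1931 in Rroid-deficient libraries. It fell to 70.4% (log2 fold change -0.51, SE 0.09, adjusted p = 0.000346, limma). Serpinb9, the granzyme B inhibitor that shields cytotoxic cells from their own enzyme (chromosome 13, 33095220 to 33097833, exon 1 of 7), read 2720, 2827 and 2682 against 1814, 2215 and 2093. It fell to 74.4% (adjusted p = 0.00196), and 1 of its 2 other peaks fell. Both calls held in each of the 13 scaling, tool and left-out-library settings. Lamp1, a lysosome and granule membrane protein, had 1283 ± 335 and 1451 ± 139 (adjusted p = 0.303). The list of mature NK effector genes thus had 3 members, with 2 lower and 0 higher. Over all peaks assigned to the list's genes 76 of 237 were lower and 18 higher, a count that includes these members. The background over all peaks is 12.1% lower and 13.8% higher, and 3 members are too few to read a share from.

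Other strong falling members had smaller changes. Zfp628, a zinc finger gene, fell from 2188 ± 234 to 1609 ± 181, while the 1 other peak assigned to it rose by 0.91 on the log2 scale. Ctdsp2, a phosphatase that acts on RNA polymerase II, fell from 2252 ± 214 to 1649 ± 279. Fancc, a Fanconi anaemia core complex gene, fell from 5723 ± 637 to 4308 ± 162. Armc5, a cofactor of a ubiquitin ligase, fell from 8774 ± 591 to 6685 ± 713. Cul2, a cullin scaffold of ubiquitin ligases, fell from 1922 ± 112 to 1460.0 ± 5.65. Ylpm1 had 2599 ± 216 and 1997 ± 209, a call lost without library 6. Their adjusted p-values were 0.00209 to 0.0074 (limma).

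Weaker members, in the main chosen after their values were seen, had the deepest folds. Sema6a, a transmembrane semaphorin of the same class as Sema6d (chromosome 18, 47526130 to 47530355), read 742, 707 and 827 in wildtype and 263, 170 and 280 in Rroid-deficient libraries. It fell to 31.3% (log2 fold change -1.70, SE 0.16, adjusted p = 1.09e-06, limma), and all 6 other peaks of the gene fell. The pair of semaphorins thus changed in opposite directions. Ror1, a receptor for Wnt5a, read 754, 665 and 637 against 377, 273 and 303 (46.4%, adjusted p = 1.54e-05), and all 10 of its other peaks fell, by up to -2.59 on the log2 scale. Kcna4, a potassium channel gene, read 146, 148 and 178 against 113, 25.7 and 60.5. Its Rroid-deficient libraries were widely spread (adjusted p = 0.00592), and all 4 other peaks fell. Il11ra1, which has near-identical copies in the mouse genome, fell from 196 ± 38.3 to 99.0 ± 12.7, and Pydc3, of a multigene family, had 390 and 239. Reads of these could be split between copies.

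**Figure D4:**
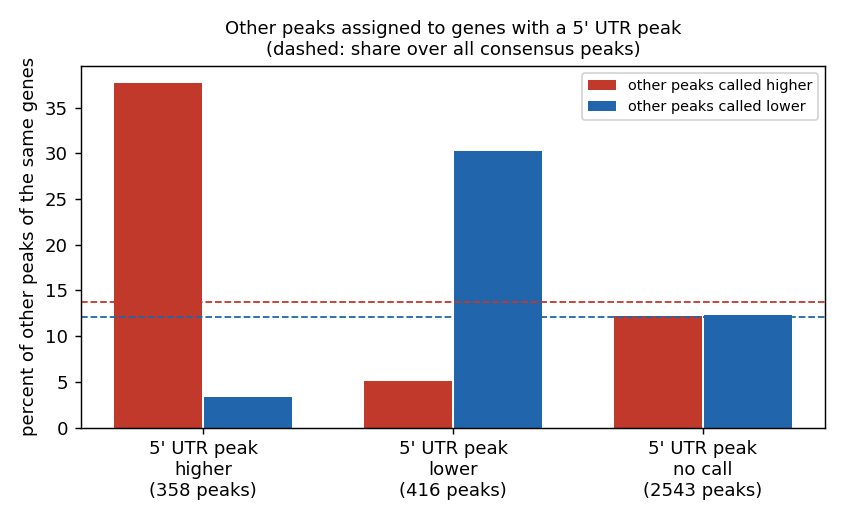
Percent of the other peaks of a gene (any class but 5' UTR) that were called higher (red) or lower (blue), by the call of the gene's 5' UTR peak, with dashed lines at the shares over all peaks. Of other peaks at genes whose 5' UTR peak rose 37.7% rose and 3.35% fell, and at genes whose 5' UTR peak fell 5.05% rose and 30.3% fell.

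Changes were often shared by the rest of the gene. Of 141 genes with a rising 5' UTR peak 108 had another peak, and of their 358 other peaks 135 were higher (37.7%) and 12 lower (3.35%), with a median log2 fold change of 0.45. Of 96 genes with a falling 5' UTR peak 84 had another peak, and of 416 other peaks 21 were higher (5.05%) and 126 lower (30.3%), with a median of -0.22. At the 703 genes with another peak and an uncalled 5' UTR peak, 311 of 2543 other peaks were higher (12.2%) and 313 lower (12.3%). Osbpl1a and Gatad2a had a falling and an uncalled 5' UTR peak each and are counted in both groups. Peaks of 1 gene come from the same 6 libraries and are neighbours, so these counts are a description. An uncalled 5' UTR peak could stand among called ones. Il6st, the gp130 signalling receptor of the interleukin 6 family, had 2186 ± 177 and 2138 ± 73.0 at its 5' UTR peak (adjusted p = 0.839, limma), while 7 of its 11 other peaks, looked at after their values were seen, rose. The weakest of these 7 was in intron 2 (chromosome 13, 113264407 to 113264970) and went from 16.0 ± 2.60 to 70.4 ± 34.7.

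A separate promoter peak of the same gene allowed a direct comparison at 44 members. The centres of these pairs were a median of 16142 bp apart. A limma test of the log2 ratio of each peak to the promoter peak of its gene was run over 13125 peaks, of which 24.9% were called. Of the 44 members 6 were higher relative to their promoter peak, 5 were lower and 33 had no call, which is 11 of 44 in either direction. The median log2 ratio change was 0.10, against 0.01 over all tested peaks. Without any 1 library, 4 to 8 were higher and 4 to 6 lower.

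**Figure D5:**
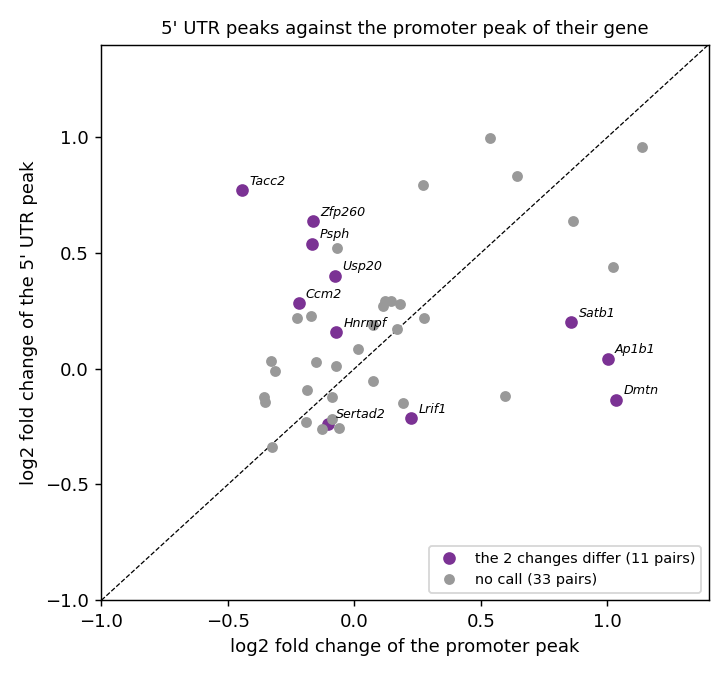
Log2 fold change (Rroid deficient minus wildtype) of 44 5' UTR peaks against that of the promoter peak of the same gene, with the line of equal change dashed. The 11 named purple points are pairs whose changes differed, 6 above the line and 5 below it.

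At 3 of the pairs that differed, the promoter peak was the weaker one and was called higher while the 5' UTR peak was not called. Satb1, a chromatin organizer of lymphocytes, read 2500, 3111 and 2411 in wildtype and 2837, 3366 and 2986 in Rroid-deficient libraries at its 5' UTR peak, which overlapped and had no call (adjusted p = 0.158, limma). Its promoter peak read 73.9, 105 and 89.9 against 150, 175 and 161, with all Rroid-deficient libraries higher (adjusted p = 0.00405), and the log2 ratio fell by 0.66 (SE 0.16, adjusted p = 0.0118). Ap1b1, a subunit of the clathrin adaptor AP-1, had 1043 ± 114 and 1075 ± 118 at the 5' UTR peak and 418 ± 82.3 and 832 ± 111 at the promoter peak (change of the log2 ratio -0.96, adjusted p = 0.00382). Dmtn, an actin-bundling protein, likewise had 799 ± 93.5 and 726 ± 40.5 beside a promoter peak that rose from 30.3 ± 6.56 to 62.3 ± 3.79.

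The reverse was seen at Zfp260 and Psph. Zfp260, a zinc finger gene (exon 2 of 3), read 208, 249 and 220 against 334, 381 and 339 at its 5' UTR peak, while its promoter peak had 680 ± 15.2 and 609 ± 59.4 (change of the log2 ratio 0.80, SE 0.17, adjusted p = 0.00706, limma). Psph, the last enzyme of serine synthesis (exon 3 of 8), rose from 222 ± 25.8 to 323 ± 33.4 at the 5' UTR peak beside 5594 ± 250 and 4984 ± 98.8 at the promoter (ratio 0.71, adjusted p = 0.00303). Tacc2, Ccm2, Usp20 and Hnrnpf had log2 ratio changes of 1.22, 0.50, 0.48 and 0.23, and Lrif1 and Sertad2 of -0.44 and -0.14. The Tacc2 peaks are weak, with 60.3 ± 22.9 and 99.4 ± 6.79 at the 5' UTR, and the call of that 5' UTR peak itself was lost with edgeR, DESeq2 and loess and without any 1 of 5 libraries. That of Psph was lost without wildtype library 2 or library 6. In 33 of 44 pairs no difference was detectable with 3 libraries per genotype.

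Genes with a role in NK cells had few 5' UTR peaks. Of 24 gene lists, which held 279 of the members, the list of NK receptors had 0 members, and so had those of T-cell, B-cell, myeloid and erythroid markers. The NK transcription factor list had Eomes and Stat5b, with 0 calls. Eomes, a T-box factor that defines conventional NK cells (chromosome 9, 118386613 to 118388805), read 4831, 5171 and 4317 in wildtype and 3721, 4438 and 3976 in Rroid-deficient libraries. The groups overlapped, and the log2 fold change was -0.24 (SE 0.09, adjusted p = 0.0566, limma). The E-protein list had Satb1 and Itga1, with 0 calls.

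Cytokine and signalling genes changed singly. Il15ra, which presents interleukin 15 (chromosome 2, 11626696 to 11628190), read 1255, 1285 and 1332 in wildtype and 943, 1060 and 1077 in Rroid-deficient libraries. It fell to 79.5% (adjusted p = 0.0184, limma), a call lost without wildtype library 2, wildtype library 3 or library 4, and it was the 1 called member of 3 in the cytokine list. Pik3r1, the regulatory subunit of PI3 kinase (chromosome 13, 102462103 to 102462678), read 452, 400 and 422 against 294, 310 and 282. It fell to 69.6% (adjusted p = 0.00663), and of 38 other peaks 13 fell and 0 rose. Nfatc2, the calcium-responsive factor NFAT1 (chromosome 2, 168426486 to 168427538), read 77.5, 57.1 and 62.5 against 154, 129 and 114. It rose 2.01-fold (adjusted p = 0.00297), and of 16 other peaks 8 rose and 0 fell. In the interferon list Ifit2 and Ifitm10, 2 of 4 members, were lower, beside 12.1% over all peaks. The other members, Oasl2 and Gbp10, had no call and log2 fold changes of 0.32 and 0.09. Over all peaks assigned to the list's genes, these members included, 35 of 276 were higher and 22 lower. The background over all peaks is 13.8% higher and 12.1% lower. Ifit2 fell from 1121 ± 110 to 880.1 ± 20.6 and Ifitm10 to 80.7% of wildtype, and each call was lost when some single libraries were left out.

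Flt3, the receptor of a dendritic-cell growth factor, was the 1 member in the list of dendritic-cell markers. It read 360, 235 and 185 in wildtype and 675, 640 and 499 in Rroid-deficient libraries (chromosome 5, 148211367 to 148212497), and the groups were apart (2.33-fold, adjusted p = 0.000127, limma). Of 5 dendritic markers Batf3, Flt3 and Zbtb46 had a peak within 1 kb of the start, and Xcr1 and Siglech had none. The 3 peaks summed to 2599 to 3292 in wildtype and 3315 to 3787 in Rroid-deficient libraries. Of these 3 peaks 1 was called higher, that at Flt3, and 0 lower. Over all peaks assigned to genes of the dendritic-cell list, Flt3 included, 9 of 67 were higher and 14 lower (median log2 fold change -0.06). The background over all peaks is 13.8% higher and 12.1% lower. The part of other cells in the Flt3 peak was not tested.

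Over all peaks 25.8% were called, and over the 5' UTR class 19.7%. Beside this, cell cycle and DNA replication had 0 calls among 16 members (median log2 fold change -0.12), and mitochondrial and energy metabolism had 0 among 13 (-0.02). Among 20 chromatin regulators 2 were lower, Eed and Kdm5c, each with a log2 fold change of -0.25. Eed is a core subunit of Polycomb complex 2 and Kdm5c an X-linked histone demethylase. Both calls were lost under loess and without any 1 of 4 libraries. RNA processing had 2 lower of 21, Rbm39 and Hnrnpll. These calls were also lost under loess, that of Rbm39 without any 1 of 3 libraries and that of Hnrnpll without any 1 of 5. The Hnrnpll call was lost as well when scaled by total reads in peaks or by DESeq2's size factors. Ribosome and translation had 1 higher, Eif4e2, and 1 lower, Rpl21, of 10, a share near that of the class. Rpl21 has many processed copies, and its call was lost without library 6. The medians of these lists lay between -0.12 and 0.03, beside -0.01 over all peaks.

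The larger families had calls in both directions, at shares near or below those over all peaks, 13.8% higher and 12.1% lower. The 5' UTR class had 11.7% and 7.97%. Ubiquitin, proteasome and chaperone genes had 6 higher and 6 lower of 51 (11.8% each), and zinc finger and BTB genes 5 and 5 of 42 (11.9% each). Vesicle and cytoskeleton genes had 4 higher and 3 lower of 44 (9.09% and 6.82%), and solute carriers and channels 5 and 4 of 38 (13.2% and 10.5%). Zfp281, a repressor known from stem cells (chromosome 1, 138520625 to 138522576), read 1012, 919 and 891 in wildtype and 1399, 1437 and 1396 in Rroid-deficient libraries, and the groups were clearly apart (adjusted p = 0.00024, limma), with means of 940.5 ± 63.1 and 1411 ± 23.0. Dock3, an activator of the GTPase Rac, read 95.3, 74.8 and 54.7 against 239, 152 and 203 (2.64-fold, adjusted p = 0.000265). Slc22a23, an orphan transporter gene, read 311, 185 and 164 against 461, 471 and 485 (2.15-fold, adjusted p = 0.000222). Slc35g1 rose from 479.6 ± 84.0 to 891 ± 37.9, and both of its other peaks rose.

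Genes with a pair of 5' UTR peaks were looked at after their values were seen. There were 5 of them, and in 2 the peaks differed in call. Osbpl1a, an oxysterol-binding protein gene on chromosome 18, had a peak at 13020138 to 13021654 that read 499, 491 and 551 in wildtype and 263, 235 and 243 in Rroid-deficient libraries (48.1%, adjusted p = 1.51e-05, limma). Its other peak, at 13099728 to 13100740, had 736 ± 74.0 and 640.0 ± 31.6 (adjusted p = 0.215). Gatad2a, a NuRD complex subunit on chromosome 8, had a lower peak with means of 4036 and 3215 (log2 fold change -0.33) and an uncalled peak with 7024 and 6304 (-0.15). Calhm2, Slc6a6 and Pld3 had no called peak among their pairs. The difference between the peaks of a pair was not tested.

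The counts by position were as follows. Over all peaks 13.8% were higher and 12.1% lower. Peaks in exon 1 had 133 higher and 92 lower of 1152 (11.5% and 7.99%), and those in later exons 8 and 4 of 52 (15.4% and 7.69%). Of 408 peaks centred more than 100 and up to 150 bp downstream of the start 39 were higher and 29 lower (9.56% and 7.11%). Up to 200 bp the counts were 28 and 18 of 250 (11.2% and 7.2%), and up to 300 bp 34 and 31 of 300 (11.3% and 10.3%). Of 219 centred beyond 300 and up to 1000 bp away 36 were higher and 15 lower (16.4% and 6.85%). Beyond 1000 bp 4 and 3 of 25 were. Differences by position were not tested. No 5' UTR peak was assigned to Id2 or lay in the block of lost peaks. The 1 member within 5 Mb of the Id2 start, at Asap2, an Arf GTPase activator, had 2205 ± 246 and 1944 ± 97.1 (adjusted p = 0.19, limma).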

How the data were processed

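The deposited table gave 1 normalized signal value per consensus peak and library. The submitters' processing notes name build mm9 and the tools MACS2 2.1.0, DiffBind, HOMER, R 3.1.1, BWA, Trimmomatic 0.32 and bcl2fastq 2.16.0. Their roles and settings, any transposase shift and duplicate removal are not given in the sources used here. Multiplying each library's deposited signal by a single factor gave whole reads for all values, to a tolerance of 0.01. The main test, limma 3.58.1 (R 4.3.3), used log2 values after adding a pseudocount of 1 and fitted an intensity trend. It ran over all 51775 peaks with Benjamini-Hochberg adjustment. It understates changes of low peaks. A filter (10 or more in at least 3 libraries) removed no peak, and all 1204 members passed. Alternatives were edgeR 4.0.16 and DESeq2 1.42.0 on the recovered reads, other scalings, pseudocounts and limits, and left-out libraries.

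The 5' UTR class and the gene lists were chosen with earlier results of these data known. Named peaks were the 12 largest and 12 deepest called changes without overlap at or above the median member level, at most 1 per gene, up to 3 called peaks and the strongest uncalled peak per list, the 6 strongest members, members within 5 Mb of Id2, and up to 5 per direction in the ratio test. The text marks peaks outside this rule as picked with their values in view. Rroid-deficient columns end in 4, 5 and 6 and match no sample title, so columns were mapped to genotypes only. The marker levels of 1 list are not reported here.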

Additional observations from a re-analysis of the deposited data

How the results depend on the processing

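No paired analysis was possible because the Rroid-deficient columns carry numbers that match no sample title. The count of 141 higher peaks was 100 to 164 and that of 96 lower peaks 30 to 135 when 1 library was left out, and 135 of the latter came without library 5. Chosen after seeing the data, leaving out libraries 4 and 6 gave 75 higher and 15 lower, and leaving out wildtype libraries 1 and 2 gave 56 lower. An adjusted p under 0.01 left 82 higher and 27 lower, a change of at least 1.5-fold left 16 lower, and a level no lower than the all-peak median left 81 higher, each by construction fewer. The median log2 fold change of -0.0115 was 0.0475 with total reads, 0.0535 with loess and 0.0543 without libraries 4 and 6; the cause was not tested. Under every scaling and tool 129 higher and 56 lower peaks stayed called, and 79 and 25 did so when libraries were left out as well. All 141 and all 96 kept their direction in these settings, while some uncalled named peaks, Il6st and Ing1 among them, changed sign. A fold of weak members rests on few reads, the lowest being 12.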
